A study of Mus musculus with 5 samples.

Results

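The genes described here encode the nuclear subunits of the oxidative phosphorylation machinery, chosen by symbol alone: those beginning Ndufa, Ndufb, Ndufc, Ndufs or Ndufv with a number (complex I), Sdha to Sdhd (complex II), Uqcr (complex III), Cox4 to Cox8 (complex IV) and Atp5 (complex V, the ATP synthase), without pseudogenes named -ps. They number 80 of the 14161 genes listed in any library: 37 in complex I, 4 in II, 8 in III, 14 in IV and 17 in V. RNA was sequenced from cells labelled as mesenchymal stem cells, the adherent stromal cells of bone marrow that can form bone, cartilage and fat. One group carried a Bmal1 knockout (3 libraries) and the other was wild type (2 libraries). Bmal1, listed as Arntl, encodes the partner of CLOCK in the circadian clock, and the series asks which genes it regulates in these cells. Both groups were C57BL/6 cells from the femur marrow of mice aged 6 to 8 weeks, taken at passages 1 to 3 and grown in the same medium. The labels do not say whether the libraries of a group came from separate mice or cultures, so p-values here measure only the spread between these libraries, which may be technical.

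The mitochondrial respiratory chain passes electrons from NADH (complex I) and succinate (complex II) through complex III and cytochrome c to oxygen at complex IV, and complexes I, III and IV pump protons as they do so. ATP synthase lets the protons return and uses the gradient to make ATP. Nearly all subunits come from nuclear genes, often short and expressed in every cell, and a small core comes from the mitochondrial genome. Marrow stromal cells are known to rely on glycolysis while they proliferate and to use more oxidative phosphorylation as they differentiate into bone.

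The libraries were shallow: they held 226695, 237088 and 281990 expected counts (knockout) and 243072 and 211623 (wild type). A gene with 0 counts in a library could still stand at 12.1 to 15.9 CPM (3 counts, for counting error only). CPM are counts scaled to a total of 1e+06 over the tested genes. Of the 80 genes, 72 to 77 were listed in each library and 66 in all 5. Arntl itself had 4, 1 and 2 counts in knockout and 5 and 0 in wild type libraries, so at this depth the deleted gene does not check the labels. Some markers of stromal cells, the labelled type, and of macrophages moved with genotype. Of 10 stromal genes, all listed, Col1a1, Col1a2, Col3a1 and Cxcl12 rose, and they made up nearly all of a summed level of 10239.6 to 10944 CPM in the knockout and 3876 to 4055 CPM in the wild type. The other 6 overlapped between the groups, with a sum of 195 ± 15.7 CPM against 212 ± 52.0 CPM, and Pdgfra, Thy1 and Nt5e had the lower mean in the knockout. Of 15 macrophage genes, all listed, 14 were tested with edgeR (below), 8 fell and 6 did not pass. In 10 the knockout lay wholly below, as in 12.7% of all genes with a count, and in 5 the groups overlapped. Of all 3710 genes tested 8.14% were lower and 8.19% higher in the knockout. The macrophage sum was 9988 to 11156 CPM in the knockout against 16216 to 16363 CPM in the wild type. Without Lyz2 it was 3456 to 4064 CPM against 5412 to 5634 CPM. In the wild type the macrophage sum stood above the stromal sum, and in the knockout their ranges overlapped. The levels below may thus be a mixture over both cell types. The part of either cell type in the results below was not tested, and in bulk RNA fewer cells of a type and less RNA per cell cannot be told apart.

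As a group the oxidative phosphorylation genes stood somewhat higher in the knockout, while few single genes differed beyond the spread between libraries. Their counts made up 0.307%, 0.317% and 0.307% of the listed counts in knockouts 1 to 3 and 0.243% and 0.258% in wild types 1 and 2. Summed over all 80 genes the level was 3474 ± 120 CPM (SD, n = 3) in the knockout and 2842 ± 92.4 CPM (n = 2) in the wild type, a ratio of 1.22. All 3 knockout libraries lay above both wild type libraries. The ratio was 1.18 from the deposited FPKM values, which weigh each gene by its length, and it lay between 1.18 and 1.26 with each library left out in turn. No p-value is given for such sums, because the genes were chosen with earlier results of these data known.

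The ratio differed in size from complex to complex, between 0.903 and 1.32, and these differences were not tested. Complex I summed to 1028, 956 and 910 CPM in knockouts 1 to 3 and to 719 and 739 CPM in wild types 1 and 2, means of 965 ± 59.4 and 729 ± 14.1 CPM and a ratio of 1.32. Complex V summed to 1336, 1540 and 1420 CPM against 1123 and 1121 CPM, a ratio of 1.28. In both complexes the groups did not overlap. Part of the complex V sum came from Atp5s and Atp5sl, which match by symbol but are not subunits of the enzyme (RefSeq names them Dmac2l and Dmac2). Without them complex V stood at 1149 ± 64.2 CPM against 963 ± 46.6 CPM, a ratio of 1.19, and the groups still did not overlap. From FPKM the ratio was 1.43 for complex I and 1.11 for complex V, or 1.08 without Atp5s and Atp5sl.

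Complexes II, III and IV overlapped between the groups. Succinate dehydrogenase summed to 187 ± 7.65 CPM in the knockout and 207 ± 53.3 CPM in the wild type, a ratio of 0.903 that became 0.754 without wild type 1 and 1.10 without wild type 2, and 0.810 from FPKM. Complex III stood at 244 ± 35.2 CPM against 236 ± 27.6 CPM, a ratio of 1.03 that fell below 1 without knockout 2 (0.961) or wild type 1 (0.944) and from FPKM (0.912). Complex IV summed to 548, 613 and 781 CPM in the knockout and to 550 and 547 CPM in the wild type, so knockout 3 was high and knockout 1 was level with the wild type. Its ratio was 1.18, or 1.06 without knockout 3.

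**Figure D1:**
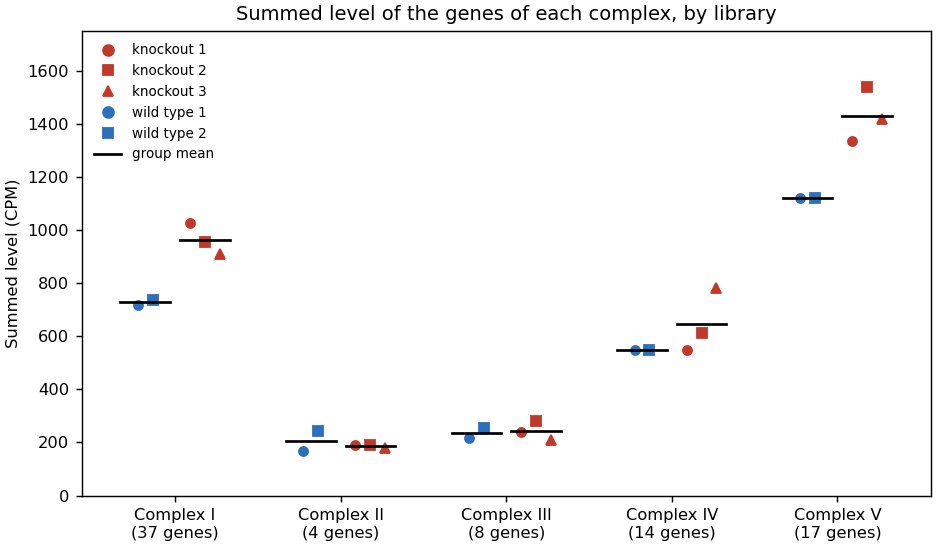
Summed level (CPM, linear axis from 0) of the genes of each complex in every library, with knockout libraries in red, wild type libraries in blue and black bars for group means. The knockout points lie above the wild type points in complexes I and V and overlap them in II, III and IV.

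Gene by gene, the mean level was higher in the knockout for 56 of the 80 genes (70.0%), where 52.6% of all 14139 genes with a rounded count were. By complex these were 26 of 37 in complex I, 2 of 4 in II, 5 of 8 in III, 9 of 14 in IV and 14 of 17 in V. For 19 genes (23.8%) every knockout library lay above both wild type libraries, against 12.4% of all genes, and for 3 genes (3.75%) every knockout library lay below, against 12.7% of all genes. To match depth, the same was counted for genes with 19 to 45.5 counts over the 5 libraries, the middle range of the 80. There 28 of 42 (66.7%) had the higher mean in the knockout against 48.7% of 3152 genes, and 8 (19.0%) lay wholly above against 14.3%. At matched depth the share lying wholly above was nearer the background, while 1 of the 42 (2.38%) lay wholly below, against 13.9%.

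Of the 80 genes 27 had enough counts for edgeR's quasi-likelihood test, fitted over 3710 genes with Benjamini-Hochberg adjustment at 0.05. Among all 3710, 606 passed (16.3%), of them 304 higher (8.19%) and 302 lower (8.14%) in the knockout. Of the 27, 1 was higher, 1 was lower and 25 did not pass. That share lies below the background, but the background was not matched for depth here and 27 genes are few. At an unadjusted p under 0.05 there were 5, and DESeq2 called 0 of the 27, with 2 at an unadjusted p under 0.05. The median log2 fold change of the 27 was 0.23, against 0.01 over all genes tested. By complex it was -0.22 over 5 genes of complex I, -0.21 over 2 of II, 0.17 for the 1 of III, 0.28 over 8 of IV and 0.33 over 11 of V. The negative median of complex I covers only its 5 tested genes. Fitted with no filter, its 37 genes had a median of 0.64, against 0.09 over all genes.

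**Figure D2:**
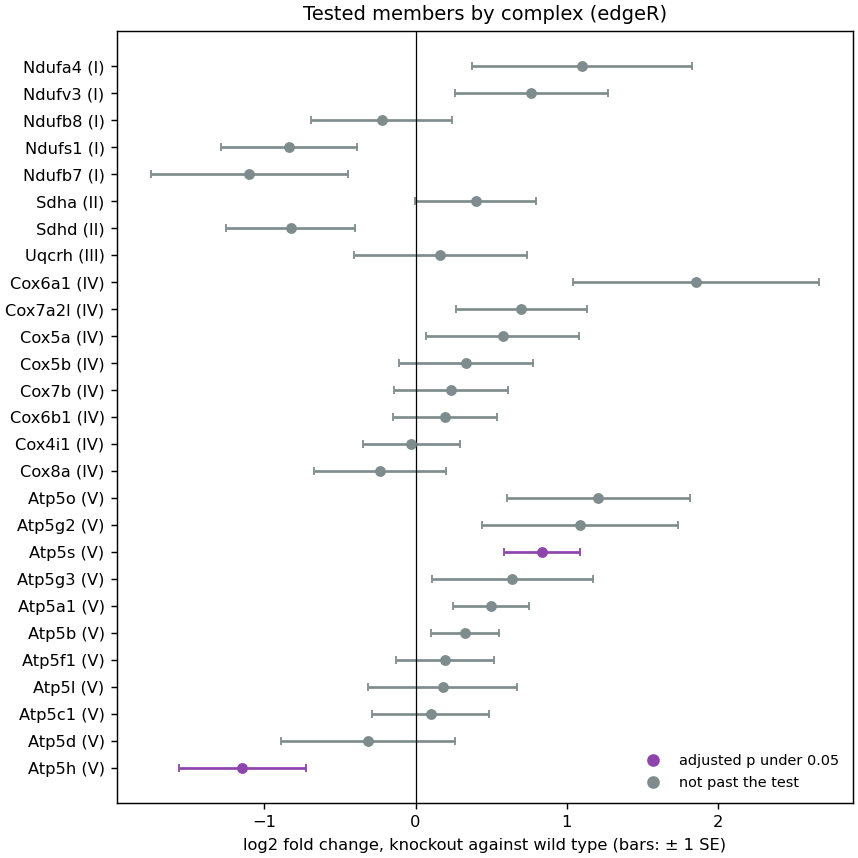
Log2 fold change of the 27 tested genes, knockout against wild type, with bars of 1 standard error on either side, grouped by complex. Atp5s and Atp5h (purple) passed the test, and the other 25 (grey) did not.

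The promoters of the genes that passed are shown next, because Bmal1 binds E-boxes and NRF1, GABPA, YY1 and ERR alpha are known regulators of this gene class. Each window holds 250 bases before to 50 bases after a start site from RefSeq (GRCm38.p6, the mm10 build), and capitals mark matches to any of these 5 motifs on either strand. Atp5h lies at chr11:115419870-115420169 on the minus strand and holds a match for NRF1 and one for the ETS motif. Atp5s lies at chr12:69724695-69724994 on the plus strand and holds none. Atp5g3, a gene for the proton-carrying c subunit, is added as an example with an E-box, at chr2:73911277-73911576 on the minus strand. Its capitals mark, in order, the E-box, ERR alpha and NRF1.
Atp5h: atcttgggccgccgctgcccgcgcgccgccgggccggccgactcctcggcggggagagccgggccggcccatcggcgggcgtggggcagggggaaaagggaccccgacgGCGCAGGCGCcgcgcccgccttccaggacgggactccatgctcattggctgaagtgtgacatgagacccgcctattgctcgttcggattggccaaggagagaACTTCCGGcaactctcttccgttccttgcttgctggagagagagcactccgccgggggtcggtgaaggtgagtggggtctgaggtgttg
Atp5s: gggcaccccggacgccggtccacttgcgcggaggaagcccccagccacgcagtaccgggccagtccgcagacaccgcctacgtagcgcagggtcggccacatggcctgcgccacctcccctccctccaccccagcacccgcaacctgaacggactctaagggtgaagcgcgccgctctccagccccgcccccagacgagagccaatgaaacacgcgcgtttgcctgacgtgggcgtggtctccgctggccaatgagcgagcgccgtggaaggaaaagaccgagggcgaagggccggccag
Atp5g3: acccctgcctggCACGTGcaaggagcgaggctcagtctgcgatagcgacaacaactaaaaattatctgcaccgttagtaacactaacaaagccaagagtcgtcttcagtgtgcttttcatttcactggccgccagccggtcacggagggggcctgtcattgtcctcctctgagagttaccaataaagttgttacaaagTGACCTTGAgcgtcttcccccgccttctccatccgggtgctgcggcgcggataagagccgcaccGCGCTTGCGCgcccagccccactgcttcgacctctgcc

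RefSeq promoters matched 66 of the 80 genes. The E-box CACGTG was found in 7 of them (10.6%), against 8.09% of 27025 genes with a promoter and 12.4% of 2917 genes that were tested here. The 7 were Atp5f1, Atp5g1, Atp5g3, Atp5l, Atp5sl, Ndufa7 and Ndufv1, of which Atp5f1, Atp5g3 and Atp5l were tested and none passed. The NRF1 motif was found in 17 (25.8%), against 5.19% of all genes and 12.0% of tested genes. The YY1 motif AAGATGGC was found in 11 (16.7%), against 3.19% and 5.76%. The ETS motif CCGGAAGT was found in 5 (7.58%), against 4.31% and 9.29%, and the ERR alpha motif TCAAGGTCA in 2 (3.03%), against 0.466% and 0.377%. A match is a description of these letters and not a measured site.

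In complex I, which oxidises NADH, 5 of the 37 genes were tested and none passed. Ndufs1, Ndufv3 and Ndufb8 fall outside the naming rule and were added, after their values were seen, so that all 5 are given. Ndufb7, an accessory subunit of the membrane arm, had 9, 2 and 5 counts in knockout and 12 and 9 in wild type libraries. Its level was 24.3 ± 17.2 CPM against 52.1 ± 6.04 CPM, with an edgeR log2 fold change of -1.10 (adjusted p = 0.265, SE 0.65). The groups did not overlap, but the knockout libraries spread widely. Ndufs1, the large iron-sulfur subunit of the core, had 10, 5 and 10 counts against 12 and 15, also without overlap (log2 fold change -0.84, adjusted p = 0.208 with edgeR). Exons of Ndufs1 lie opposite other genes over 498 bases, and without a stated strand setting their reads cannot be told from its own.

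Ndufv3, of the NADH-oxidising module, was at 0.77 (adjusted p = 0.324 with edgeR) and Ndufb8, an accessory subunit of the membrane arm, at -0.22 (adjusted p = 0.805). Ndufa3, a small accessory subunit, had the highest FPKM of complex I, 66.1 on average over the 5 libraries, from 7, 3 and 8 counts in knockout and 4 and 1 in wild type libraries. The other genes of the complex were too low to test. Among them Ndufb9, another accessory subunit, had 5, 6 and 11 counts against 3 and 1, a ratio of 3.31 (1.13 to 13.2; exact Poisson bounds at 95%, for counting error only), and it was picked after its values were seen.

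Ndufa4 carries a complex I name and is now known as a subunit of complex IV. It had 6, 11 and 12 counts in knockout and 5 and 3 in wild type libraries, 43.2 ± 12.6 CPM against 19.7 ± 5.34 CPM. All knockout libraries were higher, with a log2 fold change of 1.10 (SE 0.73) that did not pass (adjusted p = 0.326 with edgeR). Counted with complex IV, Ndufa4 took that sum to 691 ± 128 CPM against 568 ± 6.92 CPM, and the groups then no longer overlapped, by less than 1 count: knockout 1 stood at 577 CPM and wild type 1 at 573 CPM. Ndufa4l2, its relative induced by hypoxia, had 6, 6 and 4 counts against 1 and 1, too few for the test. The ratio was 4.82 (exact Poisson bounds 1.13 to 43.2), and the groups did not overlap. Without both genes the complex I ratio was 1.27.

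All 4 genes of complex II, which oxidises succinate in the citric acid cycle, overlapped between the groups. Sdha, the flavoprotein with the active site, had 15, 13 and 25 counts in knockout and 10 and 14 in wild type libraries, 78.3 ± 20.4 CPM against 60.7 ± 19.4 CPM. Its log2 fold change was 0.40 (SE 0.40, adjusted p = 0.558 with edgeR). Sdhd, a membrane anchor, had 6, 16 and 6 counts against 10 and 20 and an edgeR log2 fold change of -0.82 (adjusted p = 0.190, SE 0.43). Knockout 2 was high within its group and wild type 1 low within its own, so Sdhd varied widely among like libraries. Sdhb, the iron-sulfur subunit, had 7, 6 and 7 counts against 7 and 7, and Sdhc, the other anchor, 12, 5 and 6 against 9 and 5. Sdhb and Sdhc were too low to test, with ratios of 0.861 (0.413 to 1.84) and 0.990 (0.488 to 2.08).

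Complex III, which passes electrons from ubiquinol to cytochrome c, had 1 tested gene. Uqcrh, the acidic hinge protein that contacts cytochrome c1, had 9, 10 and 9 counts in knockout and 6 and 9 in wild type libraries. Its log2 fold change was 0.17 (SE 0.57, adjusted p = 0.889 with edgeR). The other 7 had 19 to 45 counts each over the 5 libraries, and all 8 genes of the complex overlapped between the groups. Uqcr10, a small subunit, had 6, 6 and 1 counts against 6 and 0. A listed antisense gene, 4930481A15Rik, matches it at 95.8% of 191 bases and had 59, 77 and 103 counts against 88 and 89, in all 416 where complex III had 255. Its groups overlapped (log2 fold change -0.31, adjusted p = 0.259 with edgeR), and from which locus those reads came was not tested. Cyc1, the cytochrome c1 subunit whose symbol falls outside the rule, had 3, 0 and 4 counts against 4 and 8. Uqcr10, 4930481A15Rik and Cyc1 were picked after their values were seen.

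In complex IV, the terminal oxidase, 8 of 14 genes were tested and none passed. Cox6b1, which bridges the complex IV dimer, had the highest FPKM of all 80 genes, 188 on average, from 19, 31 and 20 counts in knockout and 20 and 17 in wild type libraries. Its log2 fold change was 0.19 (SE 0.34, adjusted p = 0.769 with edgeR), and -0.10 without knockout 2. Cox4i1, the ubiquitous form of subunit 4 through which ATP regulates the enzyme, had 15, 23 and 37 counts against 30 and 16. Both groups spread alike, at 110 ± 38.8 CPM and 113 ± 39.5 CPM (log2 fold change -0.03, adjusted p = 0.967 with edgeR). Its sign turned without knockout 1 (0.20) and without wild type 1 (0.38), and 154 of its exon bases lie opposite Emc8.

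Cox6a1, the ubiquitous form of subunit 6a, had the largest log2 fold change among the 27 tested genes. It had 7, 11 and 13 counts in knockout and 4 and 1 in wild type libraries, 46.2 ± 10.9 CPM against 12.1 ± 9.53 CPM. The groups did not overlap, and the log2 fold change was 1.85 (SE 0.81, adjusted p = 0.105 with edgeR). The exact Poisson ratio was 3.74 (1.44 to 12.3). Cox6a1 passed without knockout 1 (2.04, adjusted p = 0.0424) and with limma on log2(FPKM + 1) (2.07, adjusted p = 0.0181). Its adjusted p over the alternatives ran from 0.0181 to 0.440.

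Of the remaining tested genes named by the rule, Cox7a2l was at 0.70 (adjusted p = 0.291 with edgeR), with 16, 12 and 21 counts against 8 and 10 and no overlap. Cox7b was at 0.23 (adjusted p = 0.739), or -0.13 without wild type 1, and Cox8a at -0.23 (adjusted p = 0.777), or 0.04 without knockout 2. Cox7a2, the ubiquitous form of subunit 7a, had 2, 6 and 5 counts against 4 and 5.

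The isoforms that mark other tissues were at or near 0. Cox4i2, the lung form of subunit 4, had 1, 0 and 0 counts in knockout and 1 and 1 in wild type libraries. Cox6a2 and Cox7a1, the heart and skeletal muscle forms, had 1 count each, in knockout 3 and in knockout 1. Cox6b2, Cox7b2, Cox8b and Cox8c match the rule in the RefSeq annotation and have no row in the tables. Of 11 muscle markers 1 was listed, Des with 0, 1 and 1 counts against 0 and 0, and of 7 brown adipocyte markers 4 were listed, without Ucp1, Cidea and Elovl3. At the floor of 3 counts these values do not show that the genes are silent.

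**Figure D3:**
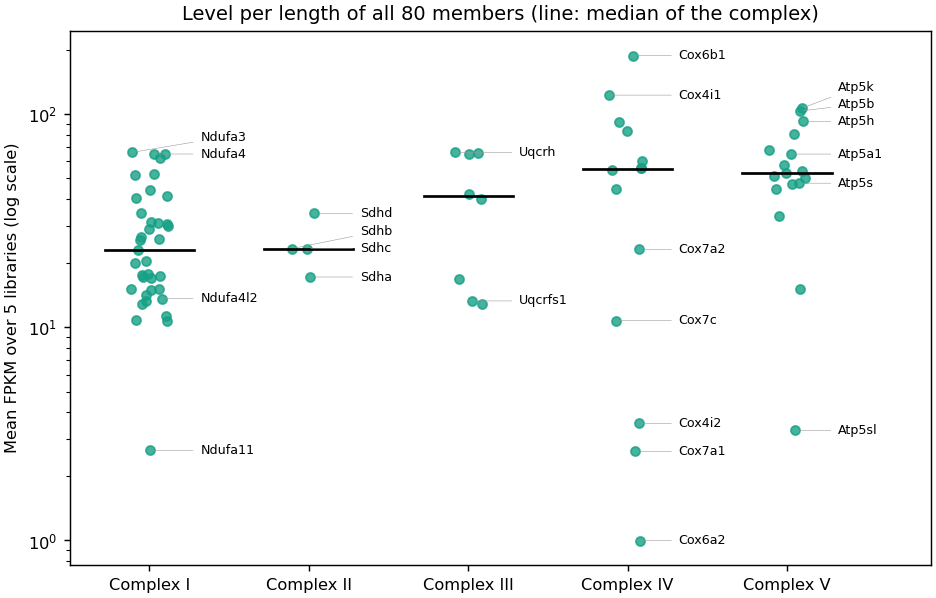
Mean FPKM over the 5 libraries (log axis) of each of the 80 genes by complex, with black lines at the median of the complex and chosen genes labelled. Cox6b1 tops the plot at 188, and the tissue isoforms Cox4i2, Cox6a2 and Cox7a1 and the gene Cox7c sit low in complex IV.

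One ubiquitous gene of complex IV, Cox7c, was also near 0, while near-identical pseudogenes held many counts. Cox7c (chr13:86044816-86046904, minus strand, mm10 in GENCODE M21) had 0, 0 and 6 counts in knockout and 0 and 0 in wild type libraries. Gm10012, a transcribed processed pseudogene in GENCODE (chr17:25901856-25902227, plus strand), had 555, 642 and 682 counts against 434 and 375. With a mean FPKM of 7207 it ranked 3 among all genes, 38.2 times the FPKM of Cox6b1. Its 2688 counts over the 5 libraries compare with 3452 for all 80 genes together. These rows were picked after their values were seen. The coding sequence of Cox7c and the same stretch of Gm10012 are shown because they differ at 2 of 192 bases, G30C and G107A, counted from 1 at the first base of the start codon and marked in capitals. A second pseudogene, Gm12338 (chr11:75599763-75599954, minus strand), has 0 differences from Cox7c over the same 192 bases.
Cox7c: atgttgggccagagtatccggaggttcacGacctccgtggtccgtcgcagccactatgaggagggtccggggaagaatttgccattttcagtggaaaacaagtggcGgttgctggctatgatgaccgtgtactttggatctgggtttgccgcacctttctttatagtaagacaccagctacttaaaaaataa
Gm10012: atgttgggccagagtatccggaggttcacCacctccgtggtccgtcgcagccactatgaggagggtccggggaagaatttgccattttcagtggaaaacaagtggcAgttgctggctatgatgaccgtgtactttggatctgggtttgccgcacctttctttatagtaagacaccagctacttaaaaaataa

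Gm10012 was higher in the knockout, at 2826 ± 201 CPM (SD, n = 3) against 2016 ± 32.4 CPM (n = 2). All knockout libraries lay above the wild type, with an edgeR log2 fold change of 0.49 (adjusted p = 0.000189, SE 0.11). The call was lost without wild type 1 (adjusted p = 0.0604) and without wild type 2 (adjusted p = 0.0793). Gm12338 went the other way, with 36, 36 and 37 counts against 57 and 50 and an edgeR log2 fold change of -0.70 (adjusted p = 0.0312, SE 0.25). That call was lost with DESeq2 (adjusted p = 0.147), the replicate block, no filter and without any single library except knockout 1. The 3 rows together held 2999 ± 200 CPM against 2283 ± 33.9 CPM, a ratio of 1.31. Before rounding, the expected counts in knockout 3 were 6.27 for Cox7c and 36.73 for Gm12338. In the other libraries both were whole, and those of Gm10012 were whole in every library. From which of the 3 loci the reads of these rows came was not tested. With Gm10012 and Gm12338 counted in, complex IV stood at 3638 ± 229 CPM against 2831 ± 35.5 CPM, a ratio of 1.28 with no overlap in place of 1.18 with overlap.

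**Figure D4:**
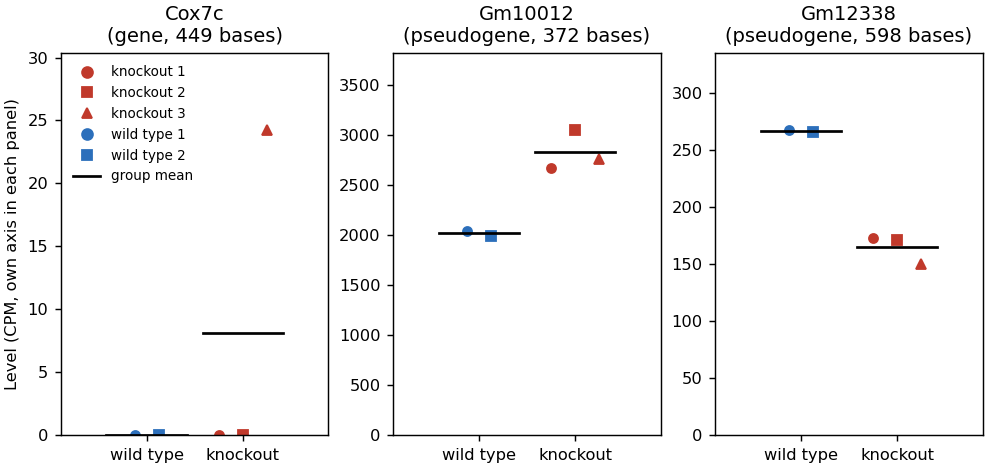
Level (CPM, each panel on its own linear axis from 0) of Cox7c and of its pseudogenes Gm10012 and Gm12338 in every library, with black bars for group means. Gm10012 lies near 2000 in the wild type and between 2666 and 3052 in the knockout, while Cox7c is at 0 in every library but knockout 3.

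Complex V, the ATP synthase, held both genes that passed the test. Atp5h encodes subunit d of the peripheral stalk, which holds the catalytic head still while the rotor turns (chr11:115415691-115419919, minus strand). It had 9, 8 and 9 counts in knockout and 20 and 15 in wild type libraries, 39.2 ± 3.57 CPM (SD, n = 3) against 86.8 ± 10.1 CPM (n = 2). The knockout libraries lay together below both wild type libraries. The log2 fold change was -1.14 (SE 0.42, adjusted p = 0.0431 with edgeR), and the exact Poisson ratio of summed counts was 0.448 (0.259 to 0.765). Atp5h remained negative in each of the 12 alternatives that gave an adjusted p, but the call was close to the threshold. It was lost with any library but knockout 1 left out (adjusted p from 0.0828 to 0.305), with limma voom (0.0609), with no filter (0.171) and with the replicate block (0.149). DESeq2 gave it no adjusted p. Transcripts of 4 genes elsewhere match that of Atp5h closely and none has a row in the tables.

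Atp5s, which is not a subunit, rose 1.79-fold (chr12:69724913-69744665, plus strand). It had 46, 65 and 71 counts in knockout and 27 and 34 in wild type libraries, 272 ± 45.8 CPM against 154 ± 38.1 CPM, with no overlap. The log2 fold change was 0.84 (SE 0.25, adjusted p = 0.00864 with edgeR). The call was lost with DESeq2 (adjusted p = 0.0885), with limma on log2(FPKM + 1) (0.0734), without knockout 2 (0.0685) and without wild type 1 (log2 fold change 0.58, adjusted p = 0.333). Of the 4 transcripts counted to Atp5s 3 are not RefSeq records. Atp5sl, its relative, had 3, 2 and 2 counts against 0 and 2.

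The catalytic head is built of alternating alpha and beta subunits, and both were picked here for their depth after their values were seen. Atp5b, the beta subunit that makes ATP, had 53, 66 and 69 counts in knockout and 44 and 46 in wild type libraries. All knockout libraries were higher, at 283 ± 29.7 CPM against 226 ± 26.7 CPM, but the log2 fold change of 0.33 (SE 0.22) did not pass (adjusted p = 0.349 with edgeR). Atp5a1, the alpha subunit, had 54, 61 and 46 counts against 39 and 30 (log2 fold change 0.50, SE 0.25, adjusted p = 0.174 with edgeR), also without overlap. Exons of Atp5a1 lie opposite Haus1 over 129 bases.

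The rotor and the stalk varied gene by gene. The c ring through which protons pass comes from 3 genes for the same mature protein. Atp5g2 had 12, 10 and 10 counts in knockout and 6 and 3 in wild type libraries (log2 fold change 1.09, adjusted p = 0.270 with edgeR), and Atp5g3 had 8, 11 and 15 against 6 and 7 (0.64, adjusted p = 0.465). In neither did the groups overlap. Atp5g1 had 2, 3 and 5 counts against 5 and 1, overlapped and was too low to test. Atp5o, the OSCP subunit that joins stalk and head, had 11, 13 and 11 counts against 4 and 5, 53.1 ± 8.65 CPM against 22.7 ± 5.50 CPM. All knockout libraries were higher, with the largest log2 fold change of the complex (1.21, SE 0.60, adjusted p = 0.169 with edgeR), but 702 of its exon bases lie opposite other genes.

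Atp5h and Atp5o, which meet in the same stalk, thus had opposite signs, and Atp5f1, the stalk's b subunit, picked after its value was seen, was at 0.20 (adjusted p = 0.749 with edgeR). Atp5k, subunit e of the membrane part, had the highest FPKM of the complex, 107 on average, from 9, 7 and 7 counts against 3 and 10, and was too low to test. With limma on log2(FPKM + 1), which calls 171 genes higher and 171 lower, the genes past the test were Atp5g2, Atp5h, Atp5o, Cox6a1 and Ndufa4.

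**Figure D5:**
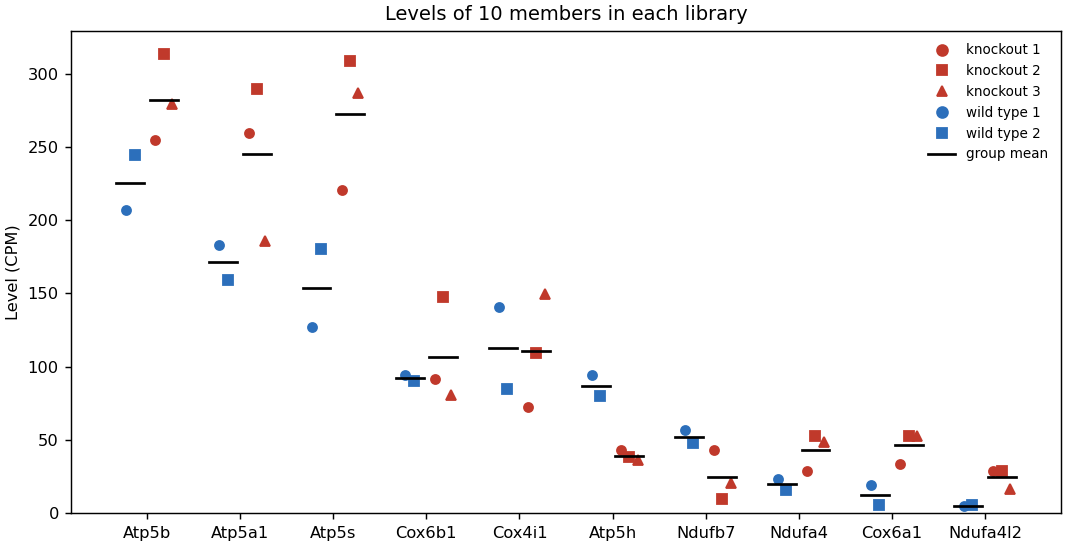
Level (CPM, linear axis from 0) of 10 of the genes in every library, with black bars for group means. Atp5h and Ndufb7 lie lower in the knockout (red), Cox4i1 and Cox6b1 overlap, and the other 6 lie higher in every knockout library.

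Most of the 80 genes had too few counts for the test, which 53 did not enter. The 80 genes had a median length of 717 bases, against 2871 for all genes, and 56 were under 1000 bases. Across them log10 length and log10 mean count had a Pearson correlation of 0.36 and a Spearman correlation of 0.29, a description over 80 genes that share the same libraries. The median gene had a mean of 6.40 counts per library. Of the 30 genes under 600 bases 9 were tested (30.0%), of the 26 from 600 to under 1000 bases 8 (30.8%) and of the 18 from 1000 to under 2000 bases 6 (33.3%). Of the 6 genes of 2000 bases or more 4 were tested, so the share was nearly level below 2000 bases. Near-identical stretches (at least 95% over at least 100 bases) in transcripts of annotated pseudogenes elsewhere were found for 21 of the 80 genes, 43 pseudogenes in all, of which the 2 copies of Cox7c have rows in the tables. Among copies that are no pseudogenes, 4930481A15Rik (Uqcr10) and 5 coding genes with a stretch like one of Ndufc1 have rows. For 16 genes at least 100 exon bases lie opposite another gene.

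Genes that assemble and feed the chain were compared from lists. Of 49 assembly factors 48 were listed and 7 tested, 1 fell and 6 did not pass. Over all 3710 genes tested 16.3% passed in either direction and 8.14% were lower in the knockout. Cox15, which makes the haem A of complex IV, had 14, 21 and 29 counts in knockout and 69 and 56 in wild type libraries (chr19:43733254-43753000, minus strand). Its level was 94.8 ± 25.4 CPM against 311 ± 18.8 CPM, with the knockout wholly below and an edgeR log2 fold change of -1.69 (adjusted p = 4.9e-09, SE 0.26). The call held in all 13 alternatives (adjusted p at most 0.00871), and 449 exon bases of Cox15 lie opposite Entpd7 and Cutc and cannot be told apart from them. The factor with the next smallest p was Cmc1, needed to build complex IV (log2 fold change -0.65, adjusted p = 0.213 with edgeR), named beyond the rule. Summed, the 48 factors stood at 1500 ± 83.1 CPM against 1707 ± 88.8 CPM, a ratio of 0.879, and the groups did not overlap. That difference rested on Cox15: without it, an alternative chosen after seeing the data, the other 47 stood at 1405 ± 74.0 CPM against 1396 ± 108 CPM, a ratio of 1.01 with overlap.

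Of 18 genes of the citric acid cycle and pyruvate dehydrogenase all were listed, 6 were tested and none passed. Pdha1, the E1 alpha subunit that admits pyruvate to the cycle, had 35, 33 and 50 counts in knockout and 16 and 25 in wild type libraries (log2 fold change 0.78, SE 0.30, adjusted p = 0.0527 with edgeR). The groups did not overlap, and 603 of its exon bases lie opposite Map3k15. Mdh2, the malate dehydrogenase, was at 0.43 (adjusted p = 0.502). Their sum was 796 ± 72.3 CPM against 658 ± 53.8 CPM, a ratio of 1.21 with the knockout above (1.12 without Pdha1).

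Of 13 regulators of mitochondrial biogenesis all were listed, 3 were tested and none passed. Their sum was 281 ± 13.6 CPM in the knockout against 210 ± 71.2 CPM in the wild type, a ratio of 1.34. The groups did not overlap (266 to 293 CPM against 160 to 260 CPM), but the wild type libraries lay far apart. Gabpa, an ETS factor known to regulate genes of this class, was at 0.74 (adjusted p = 0.320 with edgeR). Of its exon bases 397 lie opposite Atp5j. Tfb1m, a mitochondrial rRNA methyltransferase, was at 0.39 (adjusted p = 0.675 with edgeR). Of 6 carriers and pores of the mitochondrial membranes all were tested and none passed, with a summed ratio of 0.972. Slc25a3, the phosphate carrier, was at -0.66 (adjusted p = 0.226 with edgeR) and Vdac3, a pore of the outer membrane, at 0.60 (adjusted p = 0.373). A further list held 6 genes outside the rule: subunits, cytochrome c and Atpif1, the inhibitor of ATP synthase. Atpif1 is not a subunit and had 9, 9 and 6 counts against 8 and 10. Of the 6, Cycs, cytochrome c, was the 1 tested (0.89, adjusted p = 0.372 with edgeR). Summed, these 6 had the lower mean in the knockout, 121 ± 24.7 CPM against 149 ± 37.6 CPM. The ratio was 0.816, with overlap. Cyc1 and Usmg5, the latter named Atp5md in RefSeq, lay wholly below in the knockout, and none of the 6 lay wholly above. Over all genes with a count 12.7% lay wholly below and 12.4% wholly above, and 6 genes are few. Usmg5 had 3, 0 and 3 counts against 5 and 5. Cyc1 had 4 counts in both knockout 3 and wild type 1, so only the scaling parted those libraries. Cyc1 and Usmg5 were picked after their values were seen. Of the 13 subunits encoded by the mitochondrial genome 0 were listed under the names searched, such as ND1 and ATP8, so they were not analysed here.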

How the data were processed

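Total RNA of 5 libraries was sequenced, per the labels. Each deposited table covers 1 library and gives, per the file headers, every gene's length, FPKM and expected count. The build mm10 and the tools RSEM, Bowtie2, StringTie and HISAT2 come from the submitters' processing notes; versions and the strand setting are not given in the sources used here. Expected counts were rounded (93.5% to 98.6% of the values of the 80 genes were already whole within 0.005), and a gene missing from a table was taken as 0.

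The 3 knockout and 2 wild type libraries were compared with edgeR 4.0.16 (R 4.3.3): TMM scaling after filterByExpr (minimum count 10 and total 15), a robust quasi-likelihood fit on genotype, and Benjamini-Hochberg adjustment over 3710 genes. Standard errors were derived from the F statistic. Tested on simulated data for this comparison (3710 genes), the fit recovered 51% of 100 genes changed by 1 on the log2 scale. Of 100 changed by 2 it recovered 78%, and it called 8 genes that were not changed. The changed genes were drawn from all tested genes with a single dispersion. These rates are therefore not those of the oxidative phosphorylation genes. Low genes were given exact Poisson ratios (scipy 1.17.1). Alternatives used other scalings, no filter, DESeq2 1.42.0, limma 3.58.1 (voom, and trend on log2(FPKM + 1)), a replicate block and each library left out; sums were also taken from FPKM, without Atp5s and Atp5sl, and with the Cox7c pseudogenes, and list sums without Cox15 or Pdha1, these last chosen after seeing the data.

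Named genes were taken by a rule: all past the test, in each complex the highest FPKM and the highest and lowest log2 fold change, the c-subunit genes, the isoform pairs and complex II; from each list all that passed, else the 2 smallest p. Exceptions are marked where they are described. The genes and lists were chosen with earlier results of these data known. Copies were found with blastn 2.17.0 in GENCODE M21 transcripts.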

Additional observations from a re-analysis of the deposited data

How the results depend on the processing

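Depth limits most of these results, since 53 of the 80 genes were too low to test. The counts of all genes past the test, 304 higher and 302 lower, fell to 145 and 126 with DESeq2 and to 171 and 171 with limma on log2(FPKM + 1), and ran from 144 to 323 and from 146 to 287 with each library left out (144 and 154 without wild type 1, 153 and 146 without wild type 2). Of the oxidative phosphorylation genes, DESeq2 called 0 higher and 0 lower, limma on log2(FPKM + 1) called 4 higher, and 0 were lower with no filter, voom or the replicate block. With a library left out, 0 to 2 were higher and 0 to 1 lower. The median log2 fold change moved, as the tested genes did, to 0.64 with no filter (complex I) and to 0.22 (complex V). With a library left out it ran from -0.30 to 0.52 in complex I, -0.18 to 0.55 in II, -0.24 to 0.16 in III and 0.18 to 0.43 in V. Summed ratios from FPKM were 1.43 for complex I, 0.810 for II, 0.912 for III (1.03 from CPM) and 1.15 for IV. They were 1.11 for V and 1.18 for all genes. Without Atp5s and Atp5sl the ratio of complex V was 1.19 from CPM and 1.08 from FPKM. With a library left out, the ratio ran from 0.754 to 1.10 in complex II and from 1.18 to 1.26 over all genes. The ratio of the assembly factors was 0.879, or 1.01 without Cox15. The cause of these shifts was not tested. Of 244 values of 21 named genes, 214 kept their sign and their side of the threshold, 20 lost the call, 5 gained one and 5 changed sign without passing. Only genes that passed in the main fit could lose a call, and most of the 21 did not pass there. Atp5h kept its call in 5 of 12 alternatives and Gm12338 in 6 of 13. Atp5s kept it in 9 of 13, Gm10012 in 11 of 13 and Cox15 in 13 of 13.

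With the replicate number as a block, the median of complex I was -0.64, 0 of the 80 genes were lower and Atp5s remained higher (log2 fold change 0.78, adjusted p = 0.0281). The labels do not say that equal numbers share a mouse or batch. Deviations of same-numbered libraries had correlations of -0.014 and 0.032. The deviations of the wild type libraries mirror each other and most counts are low. These values therefore cannot tell whether the numbers pair the samples.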
